A study of Mus musculus with 6 samples.

Results

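Dopamine neurons of the substantia nigra (SN) depend on secreted neurotrophic factors and on the receptors that read them. Gdnf, Ret, Gfra1, Gfra2, Bdnf, Ntrk2, Ntrk3, Cntf, Manf and Cdnf were taken from the deposited table by gene symbol, which gave 10 genes out of 24054. All 10 were listed, and 9 passed a filter on low values (a group mean above 1 CPM, which is the count scaled to a common library size, in either group), while Gdnf did not. RNA of the dissected SN was measured in 3 MitoParks and 3 littermate controls aged 16 to 17 weeks. MitoParks are C57BL/6 transgenic mice with Cre at 1 copy of the dopamine transporter gene and both copies of Tfam floxed (Dat+/Cre, TFAM LoxP/LoxP), so Tfam, a mitochondrial transcription factor, is deleted in cells that express the transporter. The controls carry 1 floxed copy of Tfam and no Cre (TFAM+/LoxP, Dat+/+), come from MitoPark or parental strain litters by the methods and are labelled as littermates, and the mice received no treatment.

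GDNF binds a GFRα co-receptor, and the complex activates the receptor tyrosine kinase RET on the cell surface. BDNF and neurotrophin-3 act through the tyrosine kinases TrkB and TrkC, which Ntrk2 and Ntrk3 encode. CNTF signals through its own receptor together with gp130 and the LIF receptor. MANF and CDNF form a separate family of proteins that reside in the endoplasmic reticulum (ER) and can be secreted, and they are known for protecting dopamine neurons when supplied from outside. Adult nigral dopamine neurons are known to carry RET, GFRα1 and TrkB, whereas astrocytes carry a truncated form of TrkB that lacks the kinase.

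None of the 9 tested genes was called, a call being a change of more than 1.5-fold with p below 0.05 before adjustment (edgeR's quasi-likelihood test). Of all 14568 genes tested, 0.577% were called (0.378% higher and 0.199% lower in MitoParks), so that 0 calls among 9 genes is what this background gives. No adjusted p among all tested genes was below 0.05, while 161 genes had an unadjusted p below 0.05. The values of MitoParks and littermate controls overlapped for all 10 genes, and the groups did not overlap for 4.71% of all genes tested (2.43% higher and 2.28% lower in MitoParks). Exact two-sided permutation tests over the 6 mice gave p between 0.2 and 0.8 for the 10 genes, where 3 mice against 3 cannot give a p below 0.1. Of the 9 tested genes, 5 had a higher and 4 a lower fitted level in MitoParks. Their median log2 fold change was 0.04, beside -0.0047 over all genes tested. The largest fitted differences were those of Ret, at -0.64, Cdnf, at 0.43, Bdnf, at -0.36, and Ntrk3, at 0.31. For Gfra1, Gfra2 and Ntrk2, the 95% interval of the fold change lay within 1.5-fold in both directions, so larger changes lie outside it for these 3 genes. For the other 6 the interval reached past 1.5-fold on at least 1 side.

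**Figure D1:**
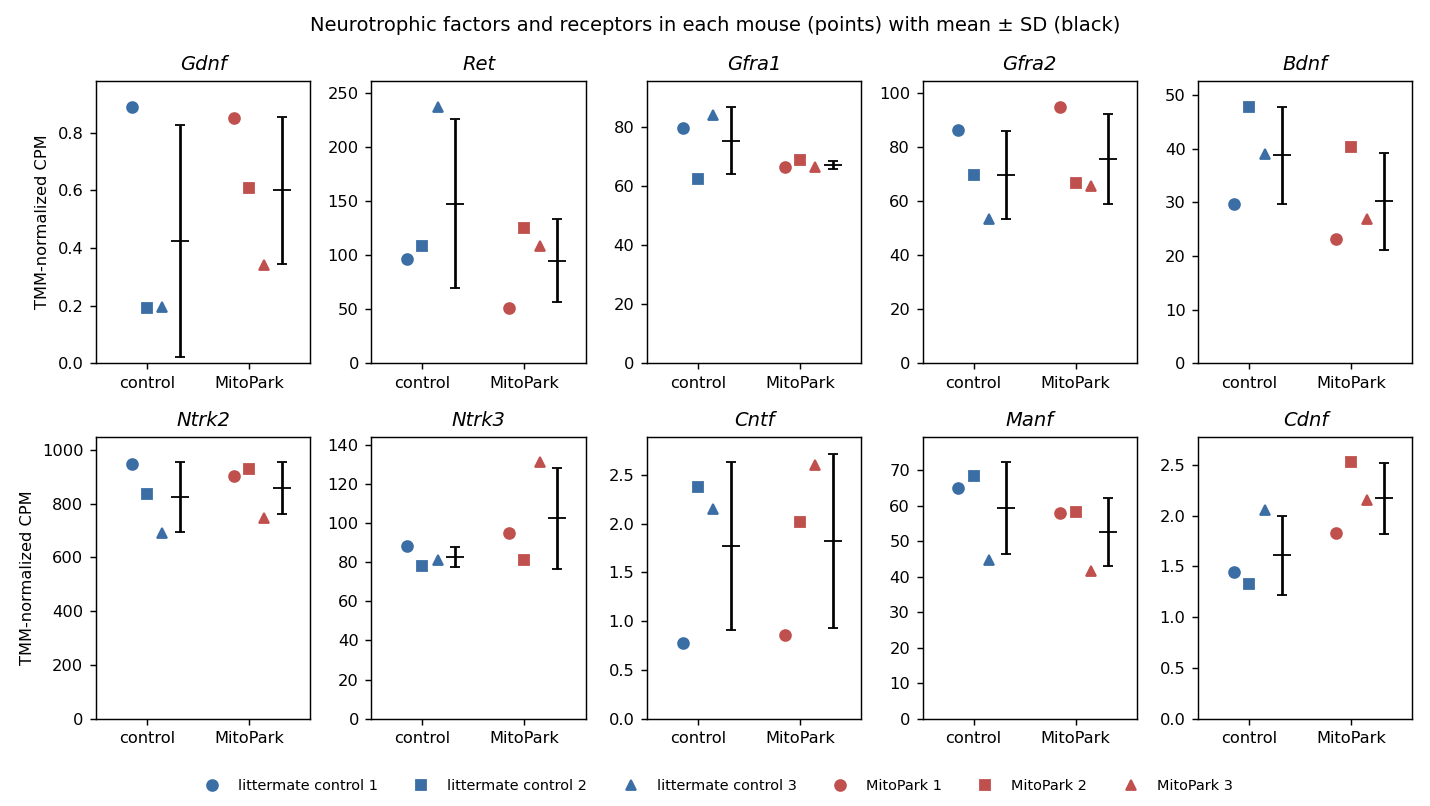
TMM-normalized CPM (vertical axes, from 0) of the 10 genes in each littermate control (blue) and MitoPark (red), with the mean and SD of the 3 mice of each group in black. The groups overlap in every panel, and control 3 stands apart for Ret at 238 CPM.

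The libraries held between 8140777 and 10528602 expected counts, so that 3 counts correspond to between 0.285 and 0.366 CPM. Tfam was lower in every MitoPark, at 32.7, 33.1 and 33.2 CPM, than in the controls, at 40.3, 44.4 and 45.5 CPM (log2 fold change -0.40, unadjusted p = 0.00565, below the 1.5-fold cutoff, quasi-likelihood test of edgeR). Markers of dopamine neurons were present in all 6 mice, apart from Pitx3, which had 0 counts in MitoPark 1. The summed level of 12 such markers was 490, 599 and 1520 CPM in control mice 1, 2 and 3. MitoParks 1, 2 and 3 had 346, 591 and 579 CPM. Control 3 had the highest sum and MitoPark 1 the lowest, and MitoParks 2 and 3 lay between controls 1 and 2. All 12 had a lower fitted level in MitoParks, at a median log2 fold change of -0.63, where 7491 of 14568 genes tested were lower. Pitx3 passed the filter only through the controls, with a mean of 1.58 CPM beside 0.32 CPM in MitoParks. Its direction was therefore set by the filter and adds nothing to this count. Of the 12, 2 were called, Slc6a3, which carries Cre in MitoParks, and Foxa1 (unadjusted p = 0.0488 for Foxa1, same test). Over all genes tested, 0.199% were called lower. With 1 mouse left out, the log2 fold change of Th, 1 of the 12, ran from -0.998 to 0.066. The summed level of 10 oligodendrocyte genes ranged from 7212 to 19054 CPM in controls and from 9843 to 16081 CPM in MitoParks, with control 3 and MitoPark 3 the highest.

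To compare genes with each other, CPM was divided by the length of the longest GENCODE M21 transcript in kilobases. On this scale Ntrk2 was the most abundant, between 78.8 and 108 CPM per kilobase over the 6 mice, and its range lay above that of every other gene. Manf, Ret, Gfra2 and Gfra1 followed, with means over 6 mice of 24.9, 22.2, 20.9 and 15.4 CPM per kilobase, and neighbours in this order overlapped. Bdnf and Ntrk3 came next, at 8.09 and 4.7 CPM per kilobase, also overlapping each other. The longest Ntrk3 transcript has 19703 bases, so shorter isoforms would give a higher level per kilobase. Cntf and Cdnf were low, at 1.68 and 0.627 CPM per kilobase, and Gdnf was lowest, at 0.14 CPM per kilobase. In each of the 6 mice, Ret, Gfra1 and Gfra2 lay above Gdnf per kilobase.

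Gdnf, the founding ligand of its family, had 8, 2 and 2 counts in control mice 1, 2 and 3, and MitoParks 1, 2 and 3 had 7, 6 and 3. Control 2, control 3 and MitoPark 3 were at or under 3 counts, and no difference was detectable at this depth (exact two-sided permutation test, p = 0.4).

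Ret, the signalling receptor of the GDNF family, was at 96.7, 108 and 238 CPM in control mice 1, 2 and 3. MitoParks 1, 2 and 3 had 51.4, 125 and 108 CPM. Control 3 was far above the other 5 mice, MitoPark 1 was below them, and the remaining 4 mice of both groups lay between 96.7 and 125 CPM. Controls averaged 148 ± 78.2 CPM and MitoParks 94.9 ± 38.5 CPM (SD, n = 3). On the log2 scale Ret differed by -0.64 (standard error 0.38), a level 0.643 times that of controls with a 95% interval from 0.356 to 1.16. This did not pass the test (quasi-likelihood test of edgeR, unadjusted p = 0.127, and 0.999 after Benjamini-Hochberg adjustment). Control 3 decided the size of this value, since without it the log2 fold change of Ret was -0.11 (standard error 0.28). Without MitoPark 1 it was -0.33, and without MitoPark 2 it was -0.88.

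Most dopamine neuron genes had the same highest and lowest mouse as Ret. Control 3 was highest and MitoPark 1 lowest for 11 of the 12 dopamine neuron markers, a pattern found in 4.89% of all genes tested. Among the 11 was Pitx3, which passed the filter only through the controls. This pattern was chosen after the values were seen. Slc18a2, the vesicular monoamine transporter gene, had the pattern over the 6 mice most like that of Ret among 14567 other genes, with a root mean square difference of 0.189 between their centred log2 values. The next 4 were AI661453, Rilp, 9630013A20Rik and Mypn, with differences from 0.191 to 0.2175. AI661453 and Rilp were low, at no more than 2.74 and 1.66 CPM in any mouse. Slc18a2 was at 93.7, 123 and 242 CPM in controls and at 73.4, 125 and 111 CPM in MitoParks. In bulk tissue, the number of dopamine neurons, the RNA per neuron and the share of SN in the dissected piece cannot be told apart. The part of each in these values was not tested.

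Because Ret and the dopamine neuron genes moved together from mouse to mouse, their counts were also set against each other within each mouse. These ratios were chosen after the values were seen, so they are given with no test. The ratio of Ret to Th counts, where Th encodes tyrosine hydroxylase, was 1.74, 2.29 and 1.49 in controls and 1.32, 2.19 and 1.65 in MitoParks, which overlap. Relative to Slc18a2 it was 1.03, 0.885 and 0.982 in controls and 0.701, 1.002 and 0.974 in MitoParks, so that MitoPark 1 alone lay below the controls. Relative to Ddc, which encodes the enzyme that follows tyrosine hydroxylase, it was 1.34 ± 0.0822 in controls and 1.32 ± 0.405 in MitoParks (SD, n = 3). Against Slc6a3, the dopamine transporter gene that carries Cre in MitoParks, the ratio was higher in every MitoPark. The groups differ in genotype at Slc6a3 itself, so a part of the Cre allele in this ratio cannot be told apart. The ratio was 1.33, 1.66 and 0.62 in controls and 3.87, 2.45 and 2.64 in MitoParks, with no overlap. Slc6a3 itself was lower in every MitoPark than in every control, at 13.3, 51.1 and 40.9 CPM beside 72.6, 65.3 and 383 CPM. It was called (log2 fold change -2.30, unadjusted p = 0.00895, adjusted p = 0.999, quasi-likelihood test of edgeR), though not with robust dispersion (unadjusted p = 0.0859). Without control 3 the log2 fold change of Slc6a3 was -0.97.

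**Figure D2:**
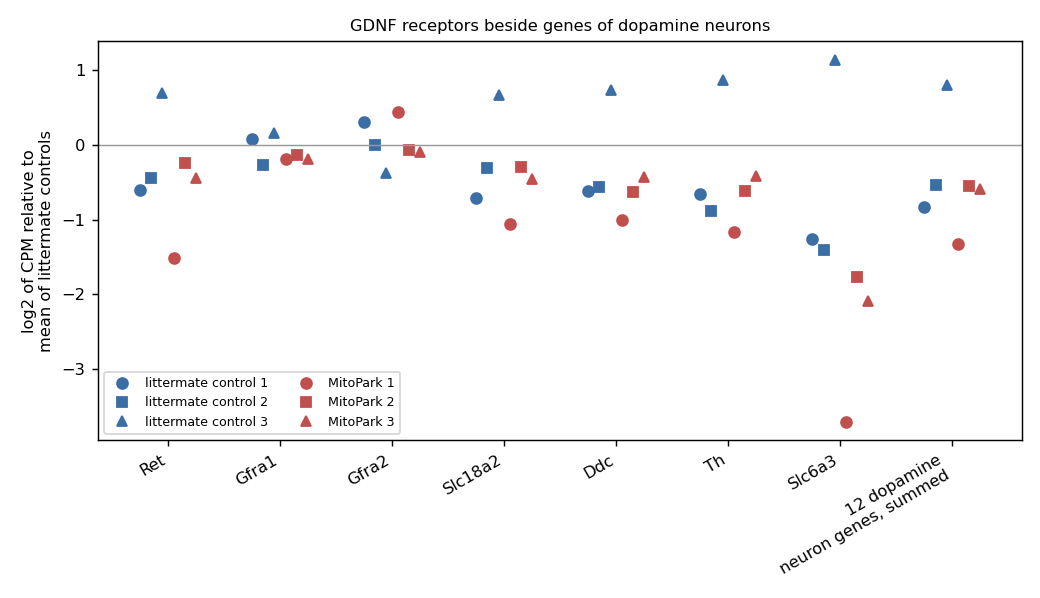
Log2 of CPM relative to the mean of the 3 littermate controls (vertical axis) for the GDNF receptor genes, 4 dopamine neuron genes and the sum of 12 such genes in each mouse. Control 3 (blue triangle) is highest and MitoPark 1 (red circle) lowest for Ret, Slc18a2, Ddc, Th and Slc6a3, but not for Gfra1 or Gfra2.

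Gfra1, the co-receptor that GDNF prefers, was at 79.7, 62.5 and 84.3 CPM in the controls, while the MitoParks had 66.4, 68.7 and 66.4 CPM. The 3 MitoParks were close to each other and lay inside the range of the controls. MitoParks had 0.891 times the level of controls, with a 95% interval from 0.73 to 1.086 (log2 fold change -0.17, unadjusted p = 0.22, edgeR's quasi-likelihood test). Gfra1 did not share the mouse order of Ret, and the ratio of Gfra1 to Ret counts ran from 0.355 in control 3 to 1.29 in MitoPark 1. Without control 2, the unadjusted p of Gfra1 was 0.0433 at a log2 fold change of -0.29, which is within the 1.5-fold cutoff.

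Gfra2, the co-receptor preferred by neurturin, was at 86.2, 69.5 and 53.5 CPM in controls and at 94.96, 66.6 and 65.4 CPM in MitoParks. Control 3 was lowest and MitoPark 1 highest of the 6 mice. Its fold change was 1.085 (95% interval 0.798 to 1.48, unadjusted p = 0.565, edgeR's quasi-likelihood test). Its log2 value of 0.12 turned to -0.04 without control 3 and to -0.07 without MitoPark 1.

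The GDNF family list held 12 genes, and 0 of the 8 tested were called, with 5 higher, 3 lower and a median log2 fold change of 0.03. Among the other ligands, Nrtn had 8, 20 and 25 counts in controls and 18, 10 and 22 in MitoParks. Artn, which encodes artemin, had 5, 7 and 2 counts in controls and 11, 13 and 4 in MitoParks (log2 fold change 1.12, unadjusted p = 0.0954, edgeR's quasi-likelihood test). Without MitoPark 3 Artn was called, at a log2 fold change of 1.47 (unadjusted p = 0.032, same test). Artn passed the filter only through the MitoParks, with a mean of 1.04 CPM beside 0.472 CPM in controls. It was fitted in 15 of the 18 alternatives, so no difference is drawn from these few counts. Gfra4, the persephin co-receptor, had a log2 fold change of -0.06, and Ncam1 and Sdc3, which encode cell surface proteins that also bind GDNF, had 0.06 and 0.00153.

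Bdnf, a ligand of TrkB that neurons make and transport along axons, was at 29.6, 47.8 and 39.0 CPM in control mice 1, 2 and 3. MitoParks 1, 2 and 3 had 23.2, 40.4 and 27.0 CPM. MitoPark 2 lay above 2 of the controls, whereas MitoParks 1 and 3 lay below all of them. Controls averaged 38.8 ± 9.08 CPM and MitoParks 30.2 ± 9.08 CPM (SD, n = 3). The ratio of MitoParks to controls was 0.779, with a 95% interval from 0.545 to 1.12 (log2 fold change -0.36, unadjusted p = 0.151, edgeR's quasi-likelihood test). Without MitoPark 2, Bdnf was called at -0.62 on the log2 scale (unadjusted p = 0.017, and 0.963 after adjustment, same test). Without control 2 the log2 fold change of Bdnf was -0.18.

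Bdnf is made by many excitatory neurons of cortex and hippocampus, and MitoPark 2, the highest of the MitoParks for Bdnf, was highest of the 6 mice for Slc17a7, their vesicular glutamate transporter gene, at 47.1 CPM. For Bdnf itself control 2 was highest. The other 5 mice were between 15.6 and 29.3 CPM for Slc17a7. The summed level of 7 such neuron genes was 45.4, 57.8 and 55.2 CPM in controls and 36.0, 84.1 and 38.9 CPM in MitoParks, and MitoPark 1, lowest for Bdnf, was lowest for the sum as well. Of these 7 genes 6 were tested and 0 were called, and their part in the Bdnf values was not tested.

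Ntrk2 was by far the best covered of the 10 genes, with between 6582 and 9179 counts per mouse. It was at 948, 835 and 689 CPM in controls and at 901, 928 and 746 CPM in MitoParks, with control 3 and MitoPark 3 lowest. MitoParks had 1.042 times the level of controls, with a 95% interval from 0.824 to 1.32 (log2 fold change 0.06, unadjusted p = 0.705, edgeR's quasi-likelihood test), and its log2 value turned to -0.05 without control 3. The count sums all isoforms, so the full-length and truncated receptors were not separated.

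Ntrk3, the receptor of neurotrophin-3, was at 88.3, 78.3 and 81.3 CPM in controls and at 95.1, 81.3 and 131 CPM in MitoParks. MitoPark 3 stood above the other 5 mice, which lay between 78.3 and 95.1 CPM. The fitted fold change of Ntrk3 was 1.24 (95% interval 0.958 to 1.61), and the unadjusted p of 0.0924 was the lowest of the 9 tested genes (edgeR's quasi-likelihood test). Its log2 fold change of 0.31 became 0.09 without MitoPark 3 and 0.46 without MitoPark 2 (unadjusted p = 0.018, within the 1.5-fold cutoff). Overlapping genes are annotated within Ntrk2, Ntrk3, Gfra1, Bdnf and Manf in GENCODE M21, and the strand setting of the counting is not given in the sources used here, so some reads of these genes could belong to a neighbour.

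Of the 12 neurotrophin and receptor genes listed, 10 were tested and 0 were called, with 5 higher, 5 lower and a median log2 fold change of 0.0065. Ngfr, the low-affinity receptor shared by the neurotrophins, was at 6.26 ± 1.61 CPM in controls and 8.34 ± 1.63 CPM in MitoParks (SD, n = 3), and without control 1 it was called at a log2 fold change of 0.62 (unadjusted p = 0.0434, edgeR's quasi-likelihood test). Ntf3, which encodes neurotrophin-3, had 8, 8 and 26 counts in controls and 3, 21 and 6 in MitoParks. The sorting receptors Sort1, Sorcs1, Sorcs2 and Sorcs3 had log2 fold changes between -0.18 and 0.03.

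Genes that process or relay the signal gave no call either. None of 7 tested proteases of neurotrophin processing was called (4 higher, 3 lower, median log2 fold change 0.06). Of 31 adaptors and effectors below Trk and RET, 11 were higher, 20 were lower and 0 were called, at a median of -0.04. Of 13 tested genes that respond to Trk activity, 7 were higher, 6 were lower and 0 were called, at a median of 0.02. The list of other growth factors described for dopamine neurons had 14 higher and 9 lower among 23 tested genes, again with 0 calls and a median of 0.05. Over all 8 lists together, 119 of 140 genes were tested, 56 were higher, 63 were lower, 0 had an unadjusted p below 0.05 and the groups did not overlap for 4. Among all genes tested, 1.11% had an unadjusted p below 0.05 and the groups did not overlap for 4.71%.

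**Figure D3:**
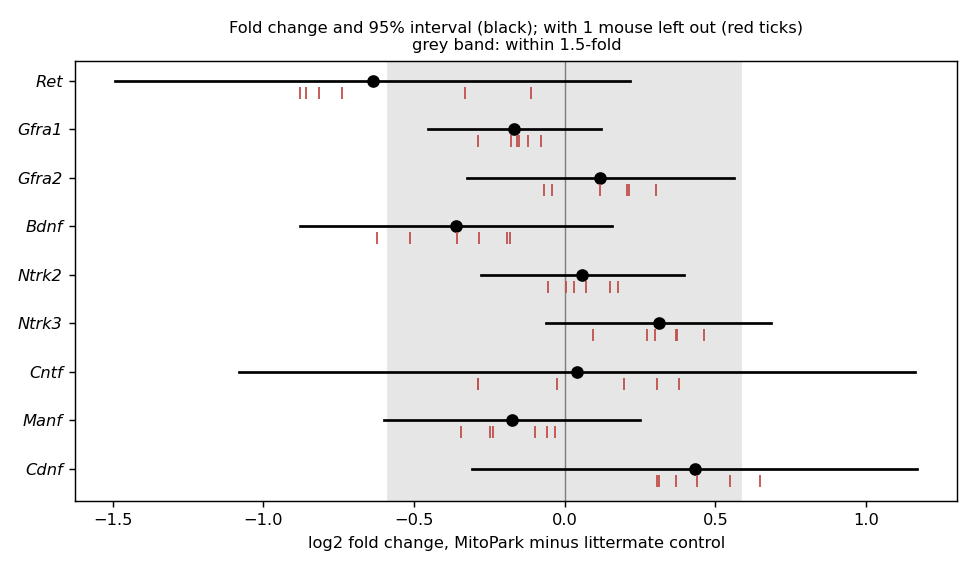
Log2 fold change of MitoParks against littermate controls (horizontal axis) for the 9 tested genes, with the 95% interval as a black line and the values with 1 mouse left out as red ticks. The grey band spans a fold change of 1.5 in either direction. All 9 intervals include 0, and the ticks of Ret spread from -0.88 to -0.11.

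Cntf, a cytokine known from astrocytes and Schwann cells, had 7, 25 and 22 counts in controls and 7, 20 and 23 in MitoParks. Control 1 and MitoPark 1 were low, at 0.78 and 0.853 CPM, and the other 4 mice lay between 2.02 and 2.61 CPM. Its fold change was 1.029 with a wide 95% interval from 0.473 to 2.24 (unadjusted p = 0.936, edgeR's quasi-likelihood test), so a change of 2-fold was not detectable at this depth. Control 1 and MitoPark 1 were the 2 lowest mice for 3 of 10 astrocyte markers and 7 of 10 oligodendrocyte markers, a pattern of 12% of all genes tested. The part of either cell type in the Cntf values was not tested. Among Schwann cell genes, 3 of 6 were tested and 0 were called. In GENCODE M21 Cntf lies within the Zfp91 gene on the same strand, so reads of the 2 genes could be exchanged, and Zfp91 had between 1520 and 2626 counts.

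The receptor side of the CNTF family was well expressed and close between the groups. Cntfr, the specific receptor subunit, was at 74.6 ± 7.96 CPM in controls and 76.6 ± 1.082 CPM in MitoParks (SD, n = 3). Lifr was at 73.4 ± 6.21 and 77.0 ± 10.1 CPM, and Il6st, the gp130 gene, at 106 ± 10.2 and 107 ± 19.2 CPM (SD, n = 3 each). Of 12 genes listed, 6 were tested and 0 were called, with 4 higher, 2 lower and a median log2 fold change of 0.02. Ctf1, the cardiotrophin-1 gene, was the 1 gene of the 6 whose groups did not overlap (4.71% of all genes tested), at 1.89, 1.52 and 1.47 CPM in controls and 1.22, 1.31 and 1.25 CPM in MitoParks (log2 fold change -0.36, unadjusted p = 0.308, edgeR's quasi-likelihood test). Il6ra had a log2 fold change of -0.01.

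Manf was at 65.0, 68.4 and 44.6 CPM in control mice 1, 2 and 3, and MitoParks 1, 2 and 3 had 57.9, 58.1 and 41.6 CPM. MitoPark 3 and control 3 were lowest, and the other 4 mice lay between 57.9 and 68.4 CPM. MitoParks had 0.886 times the level of controls, with a 95% interval from 0.66 to 1.19 (log2 fold change -0.17, unadjusted p = 0.378, edgeR's quasi-likelihood test).

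Manf is a known target of the unfolded protein response, in which ER chaperone genes are switched on through ER stress response elements. Control 3 and MitoPark 3 were the 2 lowest mice for 9 of 19 other tested ER stress genes as well, namely Hspa5, Hsp90b1, Calr, Pdia4, Pdia6, Creld2, Sdf2l1, Hyou1 and Xbp1, where 11.2% of all genes tested had that order. Hspa5, the main ER chaperone BiP, was at 588, 558 and 393 CPM in controls and at 574, 614 and 345 CPM in MitoParks (log2 fold change -0.0053). The ratio of Manf to Hspa5 counts was 0.111, 0.123 and 0.114 in controls and 0.101, 0.0947 and 0.121 in MitoParks, which overlap. This ratio and the pattern of the 2 lowest mice were also chosen after the values were seen. Creld2 and Sdf2l1, genes of ER proteins induced with Manf, had log2 fold changes of -0.0018 and 0.05. Ddit3, the stress transcription factor CHOP, had 0.03, and control 3 and MitoPark 3 were its 2 highest mice, at 27.2 and 29.0 CPM. None of the 21 tested genes of the ER list was called, with 6 higher, 15 lower and a median of -0.0099.

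The same 2 mice were the 2 highest for 10 of 10 oligodendrocyte markers, and they were the 2 lowest for Ntrk2 and Gfra2 as well as for Manf. The part of oligodendrocyte content in these 3 genes was not tested.

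The ER stress response element, searched here as CCAAT and CCACG with 9 bases of any kind between them, on both strands, was found in the 250 bases before the start site of 35 of 27025 genes, or 0.13%, in the RefSeq promoters of GRCm38.p6. It was present in 5 of the 18 ER list genes that had a promoter in this table, which were Hspa5, Hsp90b1, Calr, Pdia6 and Creld2, and in 0 of the 6 neurotrophic genes that had one. Ret, Gfra2, Ntrk3 and Manf had no entry. These 5 ER genes all shared the mouse order of Manf. Pdia4, Sdf2l1, Hyou1 and Xbp1 shared it too but were not among the 5, and Ntrk2, which also shared it, had a promoter without the element. Whether the element goes with the mouse order was not tested. The stretch from 140 to 41 bases before the start site is shown for 3 ER genes that shared the mouse order of Manf and for Cdnf, the relative of Manf, which did not. Capitals mark the element, which in Creld2 lies on the opposite strand. The stretches are chr2:34771950-34772049 (Hspa5), chr12:17266449-17266548 (Pdia6), chr15:88819506-88819605 (Creld2) and chr2:3512925-3513024 (Cdnf), all on the plus strand of GRCm38.p6.
Hspa5: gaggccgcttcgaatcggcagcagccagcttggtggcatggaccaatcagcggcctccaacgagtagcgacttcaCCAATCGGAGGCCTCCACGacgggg
Pdia6: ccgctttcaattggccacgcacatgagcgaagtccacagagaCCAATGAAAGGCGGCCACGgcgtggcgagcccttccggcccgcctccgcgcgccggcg
Creld2: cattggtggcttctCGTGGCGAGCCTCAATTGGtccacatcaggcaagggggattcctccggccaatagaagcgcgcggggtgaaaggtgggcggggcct
Cdnf: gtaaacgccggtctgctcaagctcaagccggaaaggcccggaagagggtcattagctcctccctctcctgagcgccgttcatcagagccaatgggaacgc
A match describes these letters only, and no match in this window says nothing of control elsewhere.

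**Figure D4:**
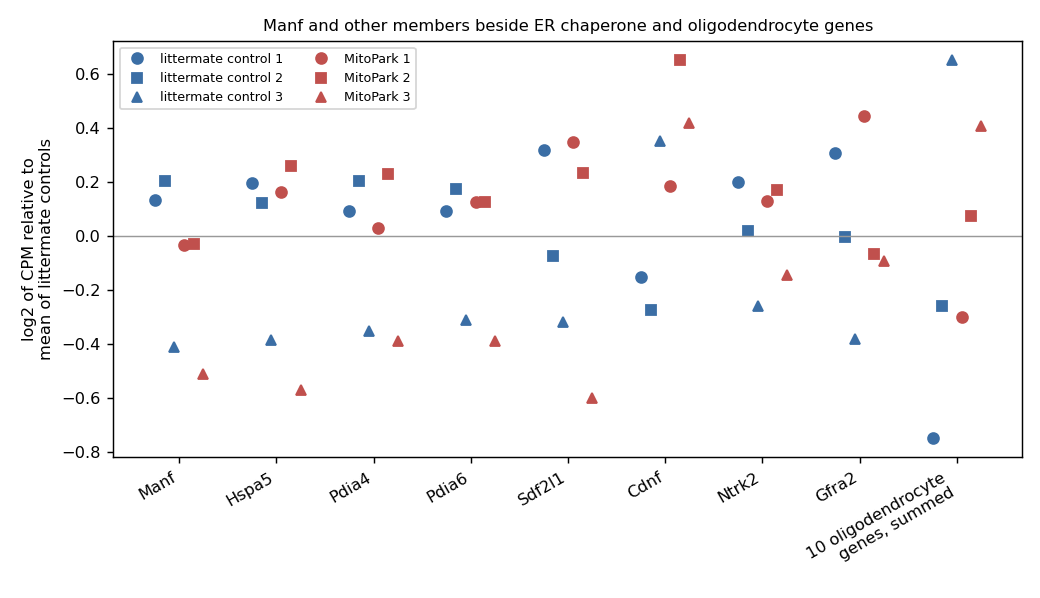
Log2 of CPM relative to the mean of the 3 littermate controls (vertical axis) for Manf, 4 ER genes, Cdnf, Ntrk2, Gfra2 and the sum of 10 oligodendrocyte genes in each mouse. Control 3 and MitoPark 3 (triangles) are the 2 lowest mice for Manf, the 4 ER genes, Ntrk2 and Gfra2, and the 2 highest for the oligodendrocyte sum.

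Cdnf had few reads, with 13, 14 and 21 counts in controls and 15, 25 and 19 in MitoParks. As levels these were 1.45, 1.33 and 2.05 CPM in controls and 1.83, 2.53 and 2.15 CPM in MitoParks, so MitoParks 2 and 3 lay above all controls and MitoPark 1 below control 3. MitoParks had 1.35 times the level of controls, with a 95% interval from 0.809 to 2.25 (log2 fold change 0.43, standard error 0.33, unadjusted p = 0.22, edgeR's quasi-likelihood test). It stayed above 0 with each mouse left out in turn, between 0.31 and 0.65.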

How the data were processed

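The authors aligned reads of polyadenylated RNA to UCSC transcripts with Bowtie2 2.1.0 and deposited the expected counts per gene from RSEM 1.2.15, not normalized. The methods name no build for this step, and the submitters' processing notes list a human one for these mouse samples, so gene coordinates are not tied to the counts. The labels give the tissue as brain and the methods as SN. Columns headed Treat were taken as the MitoParks, the only group beside the controls.

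Expected counts were rounded, and a gene was kept if its mean exceeded 1 CPM in either group. TMM factors and edgeR 4.0.16 in R 4.3.3 (quasi-likelihood, 2 groups, no other term) followed, and values are TMM-normalized CPM. Calls needed p below 0.05 before adjustment and more than 1.5-fold change. Benjamini-Hochberg adjustment covered all genes tested. Standard errors were derived from the fold change and its F statistic, and 95% intervals from these. Exact permutation tests used log2(CPM + 0.1). Reads carry no molecular identifiers, so floors cover counting error only. The controls are labelled as littermates, but which mice shared a litter is not given, and p-values measure the spread between these samples. Within groups the lowest chi-square per degree of freedom between mice was 9.68, so each mouse counted as 1 replicate.

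The fit was tested on simulated data. Transcript lengths came from GENCODE M21 and promoters from RefSeq (GRCm38.p6). The genes named are the 10 neurotrophic genes, tested ligands and receptors of their families, ER stress genes, Tfam, Th, Slc6a3 and the 5 genes most like Ret, with others named after their values were seen. Some genes of the lists are not reported here by name. Members and lists were chosen with earlier results of these data known. Alternatives were edgeR's exact and likelihood ratio tests and robust dispersion, DESeq2 1.42.0, limma-voom (limma 3.58.1), RLE, upper quartile and total count scaling, a filter in at least 3 mice or none, counts left unrounded, a block for the replicate number, a pseudocount of 1, an adjusted p cutoff and each mouse left out. Figures were drawn with matplotlib 3.10.9 in Python 3.11.15.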

Additional observations from a re-analysis of the deposited data

How the results depend on the processing

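Of all genes, 84 were called, 176 without the filter on low counts, between 62 and 219 with 1 mouse left out, and 0 at an adjusted p below 0.05. Among the 10 neurotrophic genes, the 0 calls became between 0 and 1 with 1 mouse left out (Bdnf without MitoPark 2). Among genes of the family lists they became 3 without the filter (Mmp3, Egr2 and Gdf5) and between 1 and 2 with 1 mouse left out. Replicate numbers are shared by the groups, but no source says what they mark. The correlations of the deviations of same-numbered mice were 0.307, -0.0738 and 0.244, and 4 of 6 mice matched their own number best. These values do not settle whether the numbers mark pairs, so the block was kept as an alternative only. With the replicate block 126 genes were called, among them 1 of the neurotrophic genes, Ret (log2 fold change -0.61, unadjusted p = 0.0116, adjusted p = 0.9999, edgeR's quasi-likelihood test), which was also the 1 call in the family lists. Bdnf was at -0.37 on the log2 scale with the block (unadjusted p = 0.0120, same test), which is within the 1.5-fold cutoff.

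The log2 fold changes of Ret, Gfra1, Bdnf, Ntrk3, Manf and Cdnf kept their sign in the 18 alternatives fitted. With 1 mouse left out, the log2 fold change turned at least once for Gfra2 (-0.069 to 0.30), Ntrk2 (-0.055 to 0.18), Cntf (-0.29 to 0.38), Th (-0.998 to 0.066), Nrtn (-0.20 to 0.42), Gfra4 (-0.14 to 0.043), Sdc3 (-0.069 to 0.065), Ntf3 (-1.38 to 0.40), Sorcs1 (-0.013 to 0.068), Sorcs2 (-0.062 to 0.073), Sorcs3 (-0.15 to 0.024), Cntfr (-0.019 to 0.13), Lifr (-0.028 to 0.16), Il6st (-0.14 to 0.10), Il6ra (-0.19 to 0.17), Hspa5 (-0.17 to 0.21), Creld2 (-0.17 to 0.18), Sdf2l1 (-0.11 to 0.29) and Ddit3 (-0.092 to 0.14). With all mice, values near 0 turned for Il6st (-0.0038 with limma-voom, -0.0036 with the block), Creld2 (0.0034 with upper quartile and 0.0099 with total count scaling), Il6ra (0.0028) and Hspa5 (0.0020), both with total count scaling. The cause was not tested. Depth limits Gdnf, Cntf and Cdnf most, at 2 to 25 counts a mouse.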
